A study of Homo sapiens with 28 samples.

Results

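The chromatin accessibility of 6 genes tied to myeloma bone disease, DKK1, FRZB, SFRP2, CCL3, SPP1 and HGF, was described over 28 ATAC-seq libraries of human myeloma cell lines. ATAC-seq marks open chromatin by the insertion of sequencing adapters with the Tn5 transposase. The members were all accessible regions whose nearest transcription start, as the deposited annotation names it, belonged to one of these genes. The rule gave 36 of 154985 regions, with 1 for DKK1, 1 for FRZB, 8 for SFRP2, 2 for CCL3, 4 for SPP1 and 20 for HGF. The libraries comprised 22 untreated lines, with 1 library a line, and 6 of the same lines (Karpas620, KMS27, L363, MM1S, OPM2 and RPMI8226) after 10 µM lenalidomide, an immunomodulatory drug used against myeloma, taken on day 3. The labels give the untreated libraries no treatment and name no vehicle. All lines are established tumor lines grown without marrow stroma. Each line is one derived culture, so a value for a line has no replicate of its own, and p-values for lenalidomide measure the spread of the change over 6 lines.

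One gene of the 6 is covered only in part by this rule. The start of DKK1 lies in chr10:54073452-54074778 (GRCh37), a region that the annotation column assigns to PRKG1-AS1, an antisense RNA gene, although its promoter column lists both genes. That region is no member. It is reported beside the members and always named as the DKK1 start region, and its signal cannot be divided between the neighbouring starts.

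Myeloma cells in the marrow loosen the balance between bone-forming osteoblasts and bone-resorbing osteoclasts. Wnt ligands drive osteoblast formation through Frizzled receptors and their LRP5 or LRP6 co-receptors. DKK1 blocks the co-receptors, whereas FRZB and SFRP2 are secreted Frizzled-like decoys that bind Wnt ligands. CCL3 is a chemokine that draws and activates osteoclast precursors. SPP1, or osteopontin, is a matrix phosphoprotein by which osteoclasts hold to bone through integrins and CD44, and HGF is a growth factor for the receptor MET that myeloma cells can display on SDC1. Accessibility is not expression, and these values say nothing of how much protein a line secretes.

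Library totals over all regions ran from 1599857 to 5564534 counts in the untreated lines and from 2168680 to 4248017 after lenalidomide. Values are CPM, counts scaled to a common library total over all regions, in which 3 counts correspond to 0.539 CPM in the deepest and 1.88 CPM in the shallowest untreated library. A region was taken as called in a line where that library's own peak lay in it, and such calls move with depth. Of 7 plasma cell markers, the start regions were called in a median of 21 of 22 lines, with POU2AF1, PRDM1 and TNFRSF17 in all 22. IRF4 and XBP1 were called in 18 each, and SLAMF7 in only 2. The start regions of 3 T cell markers had a median of 1 line, though CD28 was called in all 22, and CD2 and CD3D had none. Those of 4 mature B cell markers had a median of 2.5, with CIITA in all 22. The myeloid markers CD14 and SPI1 were called in 2 and 3 lines, and CSF1R, LYZ and MPO had no start region. Those of 5 stromal or osteoblast markers had a median of 6, with LEPR in 22 lines, COL1A1 in 21 and CDH11 in 0. The untreated libraries of KMS34 and PE1 had a Pearson correlation of 0.903 over 107787 regions, against 0.766 for the next of 231 untreated pairs and 0.884 to 0.933 for the 6 lines measured with and without drug. KMS12BM and KMS12PE correlated at 0.728. The labels give KMS34 and PE1 as separate lines, so results resting on both are also given without PE1.

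The 200 bases before each start are printed because they are the stretch on which the start regions below are centred or which they flank, and because the 6 genes differ in base composition there. Sequences are from the GRCh37 reference, 5′ to 3′ on the strand of the gene. Capitals mark matches, on either strand, to words bound by known factors. TCF/LEF factors, which carry the Wnt signal into the nucleus, were searched as CTTTGAT and CTTTGAA. The AP-1 word was TGACTCA. A word for MAF factors was TGCTGAC. The RUNX word was TGTGGTT. IRF factors, searched as the repeat GAAANNGAA, and Ikaros, searched as TGGGAA, were included because both act in plasma cells. The NF-kB word was GGGNNTTCC. The cyclic AMP response element was TGACGTCA. The E-box was CACGTG. Of the promoter elements, the TATA box was searched as TATAAA. The GC box was GGGCGG. The last was the CCAAT box, searched as those letters. No 2 matches overlap in these windows.
DKK1 (chr10:54073841-54074040, plus strand): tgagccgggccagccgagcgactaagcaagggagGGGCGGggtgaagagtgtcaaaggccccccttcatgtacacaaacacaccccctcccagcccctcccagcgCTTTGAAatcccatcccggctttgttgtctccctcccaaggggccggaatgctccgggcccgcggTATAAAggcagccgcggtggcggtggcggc
FRZB (chr2:183731891-183732090, minus strand): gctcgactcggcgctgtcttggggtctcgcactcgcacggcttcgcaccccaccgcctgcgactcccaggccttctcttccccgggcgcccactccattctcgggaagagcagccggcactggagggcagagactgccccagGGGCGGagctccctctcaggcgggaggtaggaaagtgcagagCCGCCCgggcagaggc
SFRP2 (chr4:154710273-154710472, minus strand): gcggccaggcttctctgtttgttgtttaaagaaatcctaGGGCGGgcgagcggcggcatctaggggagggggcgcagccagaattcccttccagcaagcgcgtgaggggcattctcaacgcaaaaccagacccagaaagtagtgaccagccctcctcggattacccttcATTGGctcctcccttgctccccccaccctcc
CCL3 (chr17:34417516-34417715, minus strand): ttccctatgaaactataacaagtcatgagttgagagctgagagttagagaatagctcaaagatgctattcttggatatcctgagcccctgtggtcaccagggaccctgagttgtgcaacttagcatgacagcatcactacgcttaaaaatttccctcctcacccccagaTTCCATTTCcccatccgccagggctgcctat
SPP1 (chr4:88896619-88896818, plus strand): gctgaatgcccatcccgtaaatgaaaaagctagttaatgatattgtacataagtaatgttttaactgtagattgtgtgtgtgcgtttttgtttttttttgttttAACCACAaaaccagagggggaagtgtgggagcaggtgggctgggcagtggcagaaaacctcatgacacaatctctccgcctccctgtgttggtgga
HGF (chr7:81399755-81399954, minus strand): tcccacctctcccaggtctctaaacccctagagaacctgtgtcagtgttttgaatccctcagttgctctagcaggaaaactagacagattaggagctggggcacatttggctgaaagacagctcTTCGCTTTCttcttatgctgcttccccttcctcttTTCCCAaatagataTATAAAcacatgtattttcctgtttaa

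The windows of the 3 Wnt antagonists held 66.0% G or C before DKK1, 70.5% before FRZB and 60.0% before SFRP2. They held 14, 17 and 10 CG dinucleotides. The windows before CCL3, SPP1 and HGF held 43.5% to 47.5% G or C and 2, 3 and 1 CG dinucleotides. The median over 19229 genes was 61.0% G or C, so that DKK1 and FRZB lay above it, SFRP2 close to it, and CCL3, SPP1 and HGF below it. DKK1 alone of the 6 held a TCF/LEF match, CTTTGAA at 95 bases before the start, a word present in 2.34% of all windows. It also held a TATA box at 30 bases (8.20% of windows) and a GC box at 166 bases (46.6% of windows). CCL3 and HGF each held an IRF repeat, found in 4.83% of windows, HGF also an Ikaros match (16.5%) and a TATA box at 27 bases, and SPP1 a RUNX match (2.51%). A match is a word in the reference and not a measured binding site. The whole of each window lay in its accessible region except for FRZB (185 of 200 bases) and HGF (114 of 200). The DKK1 window overlaps an exon of PRKG1-AS1, and the SPP1 window an exon of the unnamed gene ENSG00000286618.

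Most regions of the 6 genes were called in few untreated lines. Of the 36, 21 (58.3%) were called in exactly 1 untreated line, against 37.1% of all regions. The lenalidomide libraries turned this order, since 10 of the 21 were called in a further library. Over all 28 libraries 11 (30.6%) were called in exactly 1, against 37.2% of all regions, and 12 (33.3%) were called in exactly 1 line with or without the drug, against 40.5%. At the other end, 6 (16.7%) were called in 6 or more lines, against 25.5% of all regions, and 2 (5.56%) in 11 or more, against 14.8%. None was called in all 22 lines, as 3.98% of all regions were. The order against all regions turned with the rule, since 13 of the 36 (36.1%, against 33.2% of all regions) reached 5 CPM and 26 (72.2%, against 61.1%) reached 2 CPM in 6 or more lines.

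**Figure D1:**
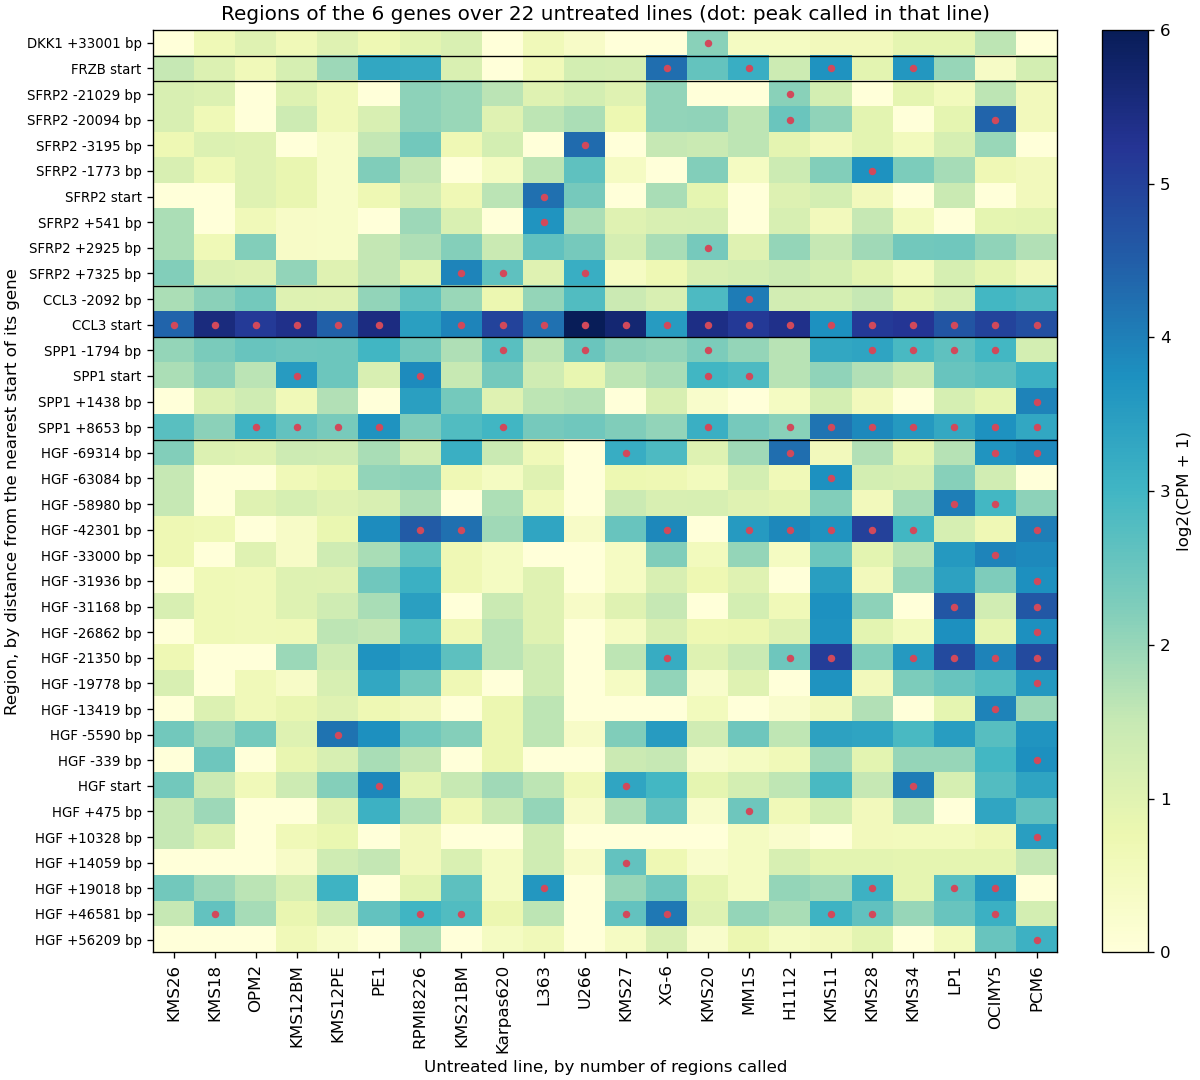
Heat map of log2(CPM + 1) for the 36 regions (rows, by gene and signed distance in bp from the nearest start, negative upstream) over the 22 untreated lines (columns, by number of regions called), with a red dot where that line's own peak lay in the region. The CCL3 start is dotted in 21 lines and the SPP1 region at +8653 bp in 13, whereas most SFRP2 and HGF rows hold 1 or 2 dots.

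The number of the 36 regions called in a line ran from 1 in KMS26 to 13 in PCM6. PCM6 (36.1% of these regions, against 25.9% of all regions) and OCIMY5 (30.6% against 25.1%) lay furthest above their own library's share, with 10 and 7 of the called regions at HGF. LP1 (19.4% against 17.7%), KMS11 (19.4% against 19.1%) and KMS28 (19.4% against 19.3%) lay slightly above theirs. Whether any line exceeded its share was not tested. KMS26, with 2.78% against 14.7%, lay lowest. H1112, the deepest library, had 7 called, against 13 in PCM6 at 2150806 counts.

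**Figure D2:**
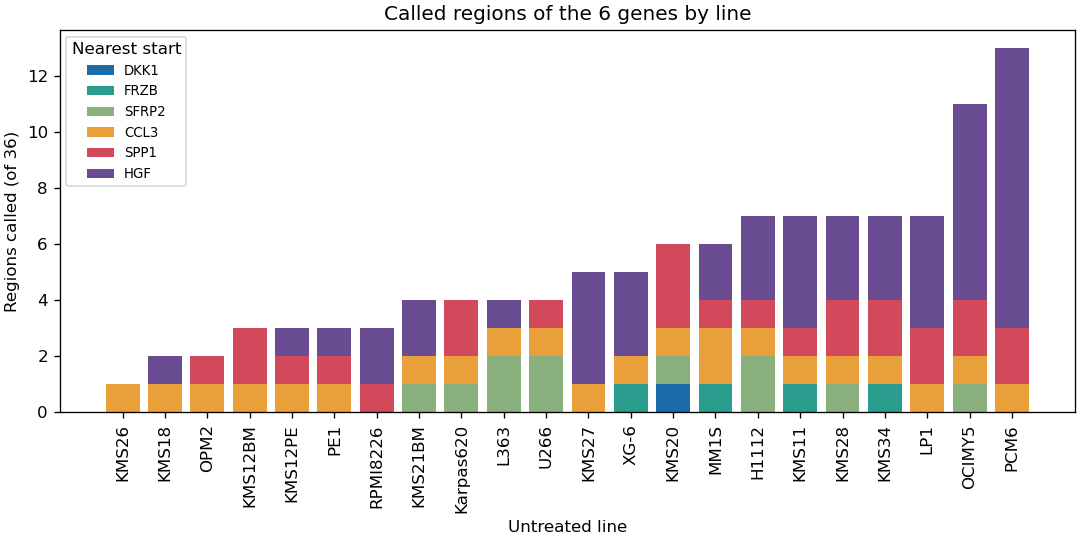
Stacked bars of the number of regions called (of 36, y axis) in each untreated line (x axis), coloured by the gene of the nearest start. Counts rise from 1 in KMS26, at CCL3 only, to 11 in OCIMY5 and 13 in PCM6, where HGF supplies 7 and 10.

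Levels of different genes were compared per kb of region. At the starts, CCL3 was the most open gene of the 5 whose start region was a member, with a median of 33.0 CPM per kb (range 10.2 to 68.2 over 22 lines). SPP1 followed at 4.41 (1.27 to 20.4), then FRZB at 3.45 (0 to 41.5), HGF at 2.55 (0.661 to 19.7) and SFRP2 at 1.17 (0 to 29.6). The mean within-line difference in log2(CPM per kb + 1) between CCL3 and SPP1 was 2.26 (SD 1.23), with CCL3 higher in 21 of 22 lines, and a two-sided sign-flip permutation test with 100000 resamples gave p = 1e-05, the smallest it can give. HGF exceeded SFRP2 by 1.01 (SD 1.87), in 16 of 22 lines (permutation p = 0.0203). Leaving out each line in turn, PE1 among them, gave 0.852 to 1.21. SPP1 did not differ from FRZB beyond the spread over lines (difference -0.04, SD 1.64, p = 0.9 by the same permutation test), nor FRZB from HGF (0.41, SD 1.53, permutation p = 0.225). Taking the tallest region within 2500 bp in place of the nearest set SPP1 above FRZB by 1.22 (permutation p = 0.00104) and left HGF and SFRP2 0.11 apart (permutation p = 0.78). The 4 neighbour comparisons were not adjusted for one another.

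The DKK1 start region, at a median of 20.9 CPM per kb, fell between CCL3 and SPP1. It lay 1.05 below CCL3 on the log2 scale (SD 1.96, permutation p = 0.0203) and 1.21 above SPP1 (SD 2.25, permutation p = 0.0223). Without PE1 these differences were 1.13 (permutation p = 0.0159) and 1.05 (permutation p = 0.0396).

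**Figure D3:**
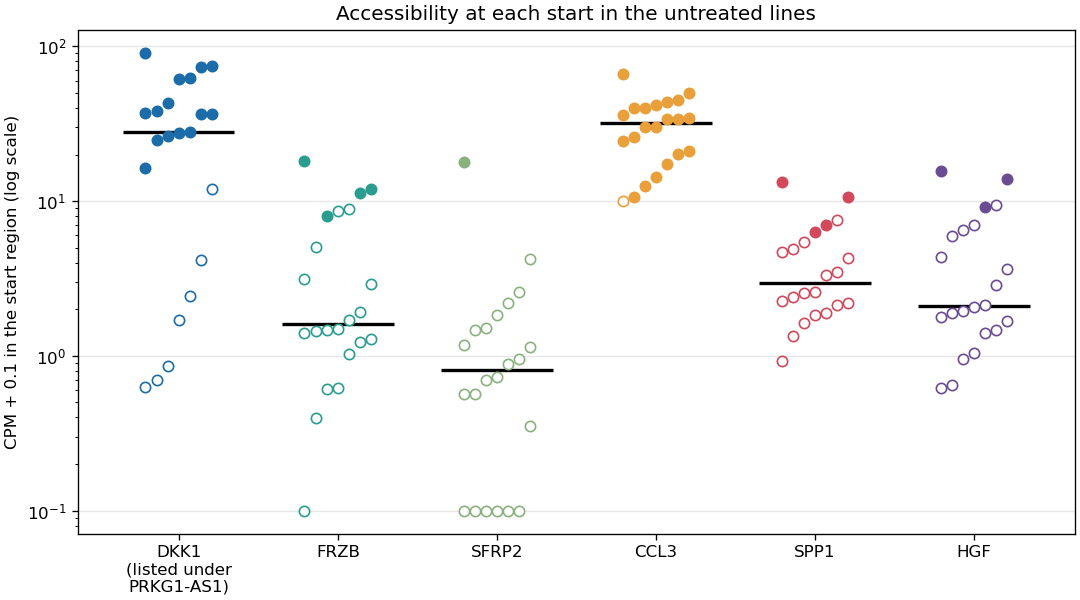
CPM + 0.1 on a log axis in the start region of each gene, with 1 point for each of the 22 untreated lines, filled where the line's own peak was called and open where it was not, and a bar at the median. DKK1 points spread from 0.526 to 90.6 CPM, CCL3 points from 9.92 to 66.2, and the SFRP2 points lie under 5 CPM except for L363 at 17.8.

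DKK1 is the best known of the Wnt antagonists in myeloma bone disease. Its start region spanned the widest range of the start regions described. It held 0.526 CPM in KMS12BM (2 counts, 95% Wilson interval 0.144 to 1.92), a median of 27.8 CPM, and 90.6 CPM in PE1 (145 counts, interval 77.0 to 107). Intervals here and below cover counting error only. The 15 lines with a call lay between 16.3 CPM in Karpas620 and the top, where PE1 was followed by KMS34 (74.4), LP1 (73.0), KMS28 (62.2) and MM1S (61.8). The other 7 lines were KMS12BM, KMS21BM (0.595), KMS12PE (0.763), H1112 (1.62), PCM6 (2.32), KMS27 (4.05) and RPMI8226 (11.8). Called and uncalled lines did not overlap in CPM. Both KMS12 lines were among those at the floor, and without PE1 the region was called in 14 of 21 lines.

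The region that the rule itself assigned to DKK1, chr10:54108014-54108221, lies in intergenic sequence 33001 bp downstream of the start. It was called only in KMS20, at 3.44 CPM, and the median was 0.518 CPM. That median is under the level of 3 counts in every library, and 5 lines had no count. KMS20 (16 counts, interval 2.12 to 5.58) lay above H1112, the deepest library (2 counts, interval 0.0986 to 1.31).

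FRZB had a single region, chr2:183731640-183732075, over its promoter, exon and 5′ UTR. It was called in XG-6 (18.1 CPM, interval 12.6 to 25.98), KMS11 (11.9), KMS34 (11.3) and MM1S (7.90). PE1 (8.75) and RPMI8226 (8.50) lay within the range of those 4 without a call. The remaining 16 lines ran from no count in Karpas620 to 4.94 CPM in KMS20, and the median over all 22 was 1.51 CPM. The groups of called and uncalled lines thus overlapped, and 6 lines reached 5 CPM.

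SFRP2 was closed at its start in all lines but one. The start region, chr4:154709929-154710532, held 17.8 CPM in L363 (35 counts, interval 12.8 to 24.8), 4.10 in U266 and 2.50 in XG-6, with no count in 6 lines and a median of 0.707 CPM. The neighbouring region at +541 bp was also called in L363 alone, at 11.7 CPM. L363 thus stood apart at adjoining regions of this gene. Both were called in no other line, so its lead there was partly fixed by how the regions came to be listed.

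The other SFRP2 regions were open in other lines. The region at -3195 bp reached 18.6 CPM in U266 and the one at -1773 bp 12.1 CPM in KMS28, each called in 1 line. The region at -20094 bp reached 20.04 CPM in OCIMY5 and was called in 2 lines, and that at +7325 bp, over exon, intron and 3′ UTR, reached 14.3 CPM in KMS21BM and was called in 3. The regions at +2925 and -21029 bp were each called in 1 line, with at most 5.10 and 3.41 CPM. Summed over the 8 regions, SFRP2 ran from 3.31 CPM in KMS12PE over a median of 13.3 to 46.2 in U266 and 40.8 in L363, so that the highest 2 lines reached like sums through different regions.

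The wider list of 15 Wnt antagonists had 11 genes with a start region under their own symbol. DKK1, whose start region was called in 15 lines under PRKG1-AS1, is not among the 11. Their median was 1 line called, and KREMEN2 and SOSTDC1 were called in none. KREMEN1, a receptor for DKK1, was the only one of the 11 in 11 or more lines, with 15, and is named after its value was seen. The calls did not follow the levels. KREMEN2, without a call, had a median of 6.65 CPM and SFRP4, called in 1 line, 6.59 CPM, against 6.48 CPM for KREMEN1. By contrast, the start regions of 19 Wnt receptor genes were called in a median of 18 lines, with FZD4 and FZD5 in all 22, and those of 14 transducers and targets in a median of 15.5 lines, with APC, AXIN1 and BCL9 among 5 in all 22. The median over all 29459 regions within 1000 bp of a start was 6 lines. Those can include several regions of a gene, whereas the lists hold 1 region a gene, so the medians are not like for like.

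CCL3 was open nearly throughout. Its start region, chr17:34417132-34418101, over promoter, 5′ UTR, exon and intron, was called in 21 lines. It ran from 9.92 CPM in RPMI8226, the line without a call (21 counts, interval 6.49 to 15.2), over a median of 32.0 to 66.2 CPM in U266 (242 counts, interval 58.3 to 75.0). XG-6 (10.6), KMS11 (12.4) and KMS21BM (14.3) were called at levels whose counting intervals reach that of RPMI8226, and KMS27 (49.6) and KMS18 (44.9) followed U266. Every line passed 5 CPM, so the region differed between lines in degree. U266 was also the highest line over the other regions within 5 Mb, at 1.33 of the median line. CCL3 has near-identical neighbours, CCL3L1 and CCL3L3, and 14.4% of the 31-base words of the start region occur elsewhere in the genome. Assignment of those reads is uncertain. The start regions of CCL3L1 and CCL3L3 were each called in 5 lines, with medians of 2.17 and 2.31 CPM. Where reads shared by these copies were placed was not tested.

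The second CCL3 region, at -2092 bp (chr17:34419608-34419950), was called in MM1S alone, at 15.4 CPM against 6.78 in OCIMY5 and a median of 2.71. Of its 31-base words, 27.2% occur elsewhere. Among the 8 start regions of the CCL3 chemokine cluster, only CCL3 and CCL5 were called in 11 or more lines, both in 21.

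SPP1 was open mainly away from its start. The start region, chr4:88896429-88897076, over promoter, 5′ UTR, exon and intron, was called in RPMI8226 (13.2 CPM, interval 9.15 to 19.1), KMS12BM (10.5), KMS20 (6.88) and MM1S (6.18), while PCM6 had 7.44 CPM without a call. The median was 2.86 CPM and the lowest value 0.820 in U266. The region at +8653 bp, chr4:88906686-88907110, intergenic on the downstream side, was called in 13 lines. It ran from 3.12 CPM in XG-6 (interval 1.33 to 7.30) over a median of 5.73 to the top in KMS11 (37 counts, interval 12.3 to 23.4 CPM), with 13.5 CPM in KMS28 and 12.1 in OCIMY5. The region at -1794 bp, chr4:88894725-88895024, was called in 7 lines with a median of 4.36 CPM and 9.28 in KMS28 at the top. The last, at +1438 bp, was called in PCM6 alone (14.4 CPM), and 53.5% of its 31-base words occur elsewhere.

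Lines high at one SPP1 region were not always high at another. Over the 22 lines the regions at -1794 and +8653 bp had a Pearson correlation of 0.65 in log2(CPM + 1) (rho 0.62, 0.78 without the 2 lines farthest from the median, 0.62 without PE1). The start region correlated with neither (-0.07 and -0.05). These are descriptions over lines that share library depth, with no test, among 9 such relations computed for SPP1 and HGF. The 200 central bases of the +8653 bp region, the SPP1 region open in most lines, are given on the plus strand (chr4:88906799-88906998), with an Ikaros match in capitals, a word found in 14.6% of 110713 distal windows.
SPP1 +8653: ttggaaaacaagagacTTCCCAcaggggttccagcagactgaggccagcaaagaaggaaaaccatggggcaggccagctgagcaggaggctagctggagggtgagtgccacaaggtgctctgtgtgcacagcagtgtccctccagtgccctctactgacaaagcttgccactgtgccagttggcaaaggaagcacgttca

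HGF had the most regions, and its summed CPM had the largest SD over lines of the 6 genes (50.3 CPM), while the highest line stood further over the median at FRZB (12.0 times) than at HGF (3.81 times). The sum over its 20 regions was 195 CPM in PCM6 (interval 177 to 214), 144 in KMS11 and 139 in LP1, with a median of 51.1. At the other end U266 had 7 counts over all 20 regions, or 1.91 CPM (interval 0.927 to 3.95), and 6 lines had no HGF region called. Regions extended from 69314 bp upstream to 56209 bp into the gene, and 12 of the 20 were called in exactly 1 line.

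Of the HGF regions, 3 were called in 6 or more lines, and none of them was the start. The start region, chr7:81399080-81399868, over promoter, 5′ UTR, exon and intron, was called in KMS34 (15.6 CPM, interval 11.3 to 21.6), PE1 (13.8) and KMS27 (9.11), against a median of 2.01 and 0.522 in OPM2. PCM6 held 9.30 CPM there without a call. Without PE1 the start was called in 2 lines.

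The region at -42301 bp (chr7:81442056-81442707, intergenic) was called in 9 lines. It rose to 31.1 CPM in KMS28 (67 counts, interval 24.5 to 39.5), 22.2 in RPMI8226 and 17.9 in KMS21BM, around a median of 5.82, with no count in KMS20 and OPM2. LP1 (1.303) and OCIMY5 (0.590), which were among the highest lines for the summed gene, were near the floor here. Of its 31-base words, 32.8% occur elsewhere in the genome.

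The region at -21350 bp (chr7:81421105-81421769, intergenic) was called in 7 lines and was led by KMS11 (32.6 CPM, interval 25.9 to 41.1), LP1 (27.8) and PCM6 (27.4), with a median of 3.30 and no count in KMS18, OPM2 and U266. RPMI8226 (10.4) and PE1 (11.9) lay above called lines such as H1112 (4.49) without a call. The region at +46581 bp (chr7:81345304-81345730, intronic) was called in 8 lines, from 5.05 CPM in KMS18 to 16.2 in XG-6 (interval 11.1 to 23.8), with a median of 3.06. Its next highest line was OCIMY5 at 7.66 CPM.

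These regions were high in partly different lines. Their pairwise Pearson correlations, the start included, ran from 0.33 to 0.53 over 22 lines (0.28 to 0.51 without PE1). The closest were the start with -21350 bp (0.53, rho 0.50) and -21350 with -42301 bp (0.52, rho 0.57). Apart from the region at -21350 bp, the 5 regions between -19778 and -33000 bp were each called in 1 or 2 lines. PCM6 led the region at -31936 bp (12.6 CPM), and LP1 those at -31168 bp (23.9 CPM) and -26862 bp (12.6 CPM). KMS11 led that at -19778 bp (11.9 CPM) and OCIMY5 that at -33000 bp (14.1 CPM). The regions at -26862 and -19778 bp were called in untreated PCM6 alone (12.6 and 11.2 CPM), and not in the lines that led them. Inside the gene, the region at +10328 bp was called in PCM6 alone at 10.2 CPM, and that at +19018 bp in 4 lines, with L363 at 11.2 CPM the highest.

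**Figure D4:**
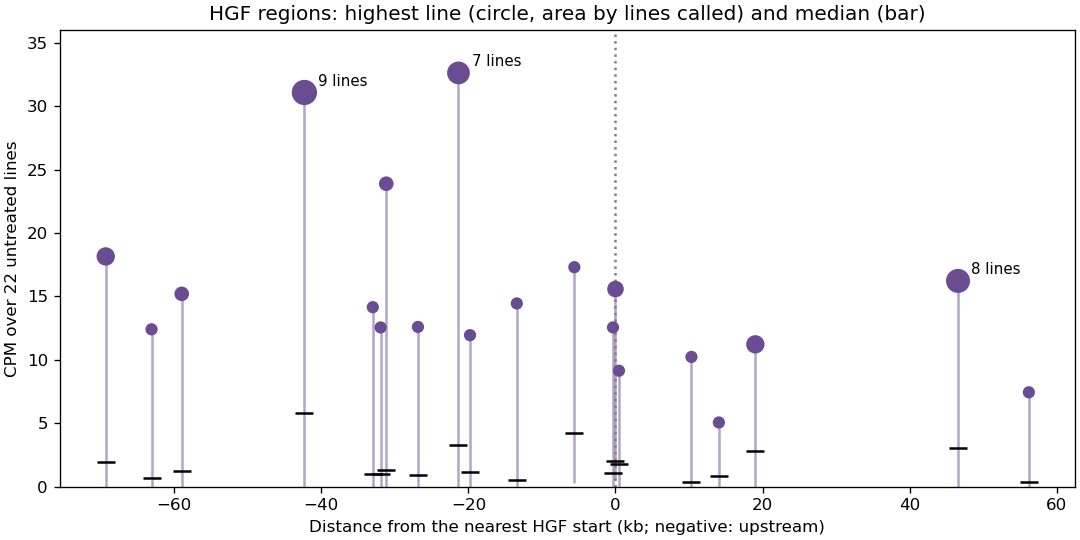
CPM over the 22 untreated lines (y axis) for the 20 HGF regions by distance in kb from the nearest HGF start (x axis, negative upstream), with a circle at the highest line, its area growing with the number of lines called, a black bar at the median and a line from the lowest to the highest value. The tallest circles stand upstream, at -21350 bp (32.6 CPM) and -42301 bp (31.1 CPM), while every median lies under 6 CPM.

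U266 was near empty over the whole HGF locus. Its 7 counts correspond to 0.230 CPM per kb, whereas all regions without a call in U266 averaged 3.16 CPM per kb, a ratio of 0.0730. The next lowest ratio, in KMS20, was 0.334. Regions within 5 Mb of HGF summed to 0.463 of the median line in U266, the lowest of 22, and to 1.495 in PCM6. Counts were not corrected for DNA copy number, at this or the other genes. Differences in copies and in open chromatin cannot be told apart in these data.

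Lenalidomide binds cereblon and leads to loss of the Ikaros factors, and it is used in patients whose bone disease these genes take part in. Over the 12 paired libraries, with the cell line as a block, 37732 regions had enough counts to be tested by edgeR's quasi-likelihood test and 2054 of them (5.44%) changed at an adjusted p below 0.05, with 1585 (4.20%) raised and 469 (1.24%) lowered. Only 6 of the 36 regions had enough counts, and 1 was called, an HGF region that was raised. One call among 6 is too few to set against the background share.

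The raised region, chr7:81405345-81406180, is intergenic and 5590 bp upstream of an HGF start. It was called in 1 of the 22 untreated lines, KMS12PE (17.3 CPM, interval 13.7 to 21.9), with a median of 4.26 CPM. Untreated PE1 (12.5 CPM), PCM6 (11.6), XG-6 (10.6) and LP1 (10.4) had no call, though they lay above KMS27 after the drug (6.50 CPM), which was called. The calls thus did not follow the levels here. In the 6 paired lines it was called in none untreated and in 4 after the drug. It went from 4.17 to 19.4 CPM in OPM2, from 4.46 to 16.7 in MM1S and from 2.04 to 11.5 in L363. It went from 3.71 to 6.50 CPM in KMS27, from 0.694 to 1.57 in Karpas620 and from 4.25 to 3.53 in RPMI8226. Thus 5 of 6 lines were higher after the drug, with OPM2, MM1S, L363 and KMS27 above every untreated value of the 6 lines and the groups overlapping through Karpas620 and RPMI8226. The log2 fold change was 1.48 (SE 0.30, adjusted p = 0.00142, edgeR quasi-likelihood test). The counts behind it were low, between 2 and 13 untreated and between 4 and 46 after the drug. Without MM1S the region no longer passed the filter on counts, and when kept in, it stayed raised (1.31, adjusted p = 0.0290 by edgeR).

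The 200 central bases of this region, the one of the 36 that changed, are given on the plus strand (chr7:81405663-81405862). They held 33.5% G or C, against a median of 46.5% over distal windows. The capitals mark 2 matches to the TATA box word, found in 10.6% of distal windows, and the window held no Ikaros word (14.6%) and no IRF repeat (12.3%).
HGF -5590: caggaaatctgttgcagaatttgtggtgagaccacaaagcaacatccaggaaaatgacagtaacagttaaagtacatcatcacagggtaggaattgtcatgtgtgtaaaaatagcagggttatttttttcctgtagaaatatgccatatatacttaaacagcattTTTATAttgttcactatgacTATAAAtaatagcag

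The other tested regions did not pass. The CCL3 start held 9.92 to 49.6 CPM untreated (median 32.0) and 14.8 to 47.5 CPM after the drug (median 27.4) in the 6 lines. It was higher in 3 of 6 lines, and the log2 fold change was 0.05 (SE 0.14, adjusted p = 0.910 by edgeR). MM1S went from 34.3 to 22.5 CPM and RPMI8226 from 9.92 to 14.8, where it gained a call. The CCL3 region at -2092 bp had a log2 fold change of 0.32 (SE 0.28).

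At SPP1, the start had a fold change of 0.15 on the log2 scale (SE 0.31) and the region at +8653 bp one of 0.19 (SE 0.30, adjusted p = 0.826 by edgeR). The start went from 2.09 to 12.7 CPM in OPM2 and was lower in the other 5 lines, so that its direction turned to -0.33 without OPM2. The +8653 bp region went from 4.12 to 8.71 CPM in MM1S and from 4.08 to 0.461 in L363, in opposite directions. The HGF region at -42301 bp had a log2 fold change of 0.02 (SE 0.25), with values of 0 to 22.2 CPM untreated and 0.452 to 16.9 after the drug. The order of the lines was much the same on both sides of treatment there, with an SD of the change of 0.52 in log2(CPM + 1) against an SD of 1.71 between the 22 lines.

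The DKK1 start region held 4.05 to 61.8 CPM untreated (median 21.9) and 7.53 to 73.7 CPM after the drug (median 24.4). It was higher in 4 of 6 lines, with a log2 fold change of 0.22 (SE 0.15, adjusted p = 0.500 by edgeR). The change had an SD of 0.37 over lines, against 1.97 between the 22 untreated lines, so that lines differed far more from one another than from themselves after the drug. The SFRP2 start, too low for the test, stayed called in L363 alone, at 17.8 CPM untreated and 32.3 CPM after the drug. FRZB stayed called in MM1S alone, at 7.90 and 6.53 CPM.

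**Figure D5:**
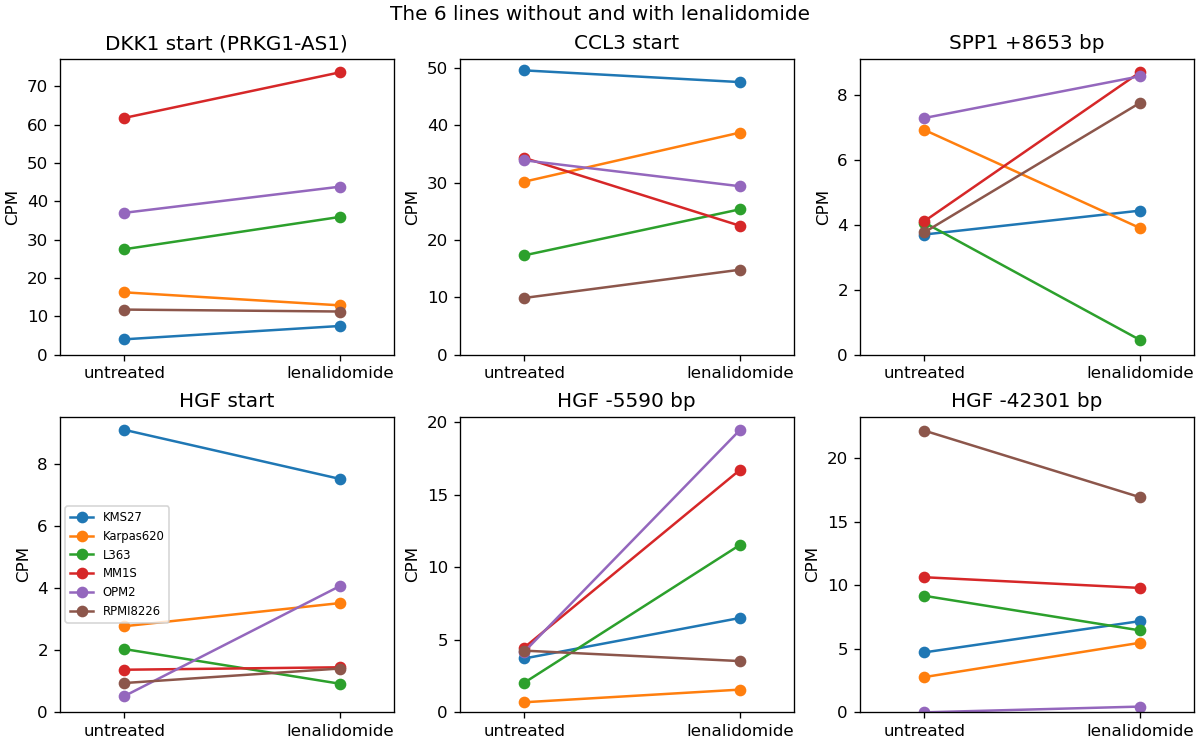
CPM (y axis, from 0, own scale in each panel) in 6 regions for the 6 lines without and with lenalidomide (x axis), 1 coloured line for each cell line. The lines of the HGF -5590 bp panel climb for OPM2, MM1S and L363 to 19.4, 16.7 and 11.5 CPM, whereas those of the DKK1 start stay in the range 4.05 to 73.7 with little change of order.

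Summed by gene, 627 of 27111 genes tested (2.31%) changed, with 532 raised (1.96%) and 95 lowered (0.35%), and none of SFRP2, CCL3, SPP1 or HGF was among them. HGF had the largest of the 4 fold changes, 0.26 on the log2 scale (SE 0.15, adjusted p = 0.447 by edgeR), and was higher in 5 of 6 lines, from 15.1 to 40.2 CPM in OPM2 but from 94.0 to 71.6 in RPMI8226. CCL3 (0.11, SE 0.14), SFRP2 (0.09, SE 0.19) and SPP1 (0.09, SE 0.19) lay closer to 0. SPP1 turned to -0.03 without MM1S and to -0.06 without OPM2. DKK1 and FRZB had too few counts to be tested. The median over all genes was 0.00.

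Among the other genes of these pathways, those of the receptors and decoys held the only calls. ITGB3 (0.95, SE 0.18, adjusted p = 0.00283 by edgeR) and ITGB1 (0.48, SE 0.11, adjusted p = 0.0104), integrin chains that bind osteopontin, rose, and CD44 (-0.38, SE 0.10, adjusted p = 0.0464), a hyaluronan and osteopontin receptor, fell. That is 3 of 11 genes tested, with a median of 0.09, against 627 of all 27111 genes tested (2.31%). This list stands out only beside others without a call, and whether it holds more calls than that share was not tested. None of 9 Wnt antagonists (median 0.16), 18 Wnt receptors and regulators (0.04), 14 transducers and targets (-0.01), 16 factors acting on osteoclasts or osteoblasts (0.08), 8 genes of HGF activation and display (0.17), 3 bone matrix phosphoproteins (0.09) or 5 chemokines of the CCL3 cluster (0.26) passed the test.

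The start regions whose levels over the 22 lines were most like each start were named from 16630 start regions, by Pearson correlation of log2(CPM + 1). A partner picked as the highest of so many over 22 lines has a high value partly through that choice. Likeness beyond it was not tested for any partner. For the DKK1 start region these were NTRK2 (0.94, rho 0.91, 0.95 without the 2 farthest lines), MED12L (0.87) and SH3BGRL2 (0.86). For SPP1 they were AIF1 (0.84, rho 0.68, 0.71 without the 2 farthest), NAGK (0.77) and KIAA0226L (0.75), and for FRZB AANAT (0.79, rho 0.80, 0.74 without the 2 farthest), RNF180 (0.79) and HSF4 (0.71). CCL3 was closest to KDM4C (0.78, rho 0.72, 0.63 without the 2 farthest), USP47 and RNU1-2. SFRP2 was closest to CTB-161C1.1 (0.78, rho 0.65, 0.60 without the 2 farthest) and HGF to RP11-313F23.4 (0.73, rho 0.64, 0.53 without the 2 farthest). The third SFRP2 partner, ANGPTL4, fell from 0.71 to 0.28 without the 2 farthest lines and so rested on them. Without PE1 the NTRK2 value was 0.93 and the HGF value 0.67.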

How the data were processed

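Open chromatin was measured by ATAC-seq in 22 untreated myeloma lines and in 6 of them after lenalidomide. Per the labels, reads were aligned to GRCh37 with Bowtie2 2.2.6, and SAMtools 1.7 and MACS2 2.1.0.20151222 were used. How the regions were merged and how reads were counted is not given in the sources used here. The authors deposited whole-number counts for each of 154985 regions and library, with a table of each library's own peaks in a region, which the files do not define further and which was read as the call. A deposited coverage track and a peak list were not used. A tagmented read end is a cut site, and whether ends were shifted is not given.

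CPM was each count over the library's total in regions. Levels are CPM, with 95% Wilson intervals. Start regions were the nearest within 1000 bp, and gene sums added all regions of one symbol. Lenalidomide was tested with edgeR 4.0.16 (TMM, filterByExpr, quasi-likelihood, Benjamini-Hochberg over all regions or genes) in R 4.3.3, with the cell line as a block because the same line was measured in both states. Scripts were tested on simulated data. Likeness used log2(CPM + 1) and partners of at least 2 CPM. Sequences were cut from GRCh37. Python 3.11.15, NumPy 2.4.6, SciPy 1.17.1 and DESeq2 1.42.0 were used.

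Described in full were each start region, each region called in 6 or more lines and each region past the test for lenalidomide. Of other lists, up to 3 genes past the test in a direction, and up to 3 called in all or no lines, were named. The members and lists were chosen with earlier results of these data known. Alternatives were other scalings and filters, DESeq2, no block, other call rules and leaving out each line.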

Additional observations from a re-analysis of the deposited data

Results flagged for a closer look

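Sets of 6 libraries were screened, 34 in all, 1 for each gene sum or described region without or with lenalidomide. A library whose gap to the next exceeded Dixon's 95% critical value was found 5 times. Chance would give about 1 in 20 sets if the sets were independent and their values normal. These sets share libraries and often hold few counts, so an excess over chance was not tested. At the SFRP2 start, L363 lay apart both untreated (17.8 CPM, next 2.08) and after lenalidomide (32.3 CPM, next 2.35). At the HGF region at -21350 bp, RPMI8226 lay apart untreated (10.4 CPM, next 2.08) and after lenalidomide (8.71 CPM, next 2.31). At the HGF start, KMS27 lay apart untreated (9.11 CPM, next 2.78). The first 2 regions marked the same line in both states. The SFRP2 start, however, was called in L363 alone, so its gap there was partly fixed by how the region came to be listed.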

How the results depend on the processing

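Each untreated line has 1 library, and depth limits low regions, where 3 counts are 0.539 to 1.88 CPM. Regions called for lenalidomide numbered 4092 with no filter, 828 by DESeq2 and 599 (of 13790 tested) when every library had to hold 10 counts, against 2054. Leaving out each line gave 1040 to 2473, with 1040 without MM1S, 1302 without KMS27 and 1403 to 2473 otherwise, and 1121 without MM1S over the regions of the whole fit. Gene sums called numbered 271 by DESeq2, 367 at 10 counts in every library and 274 to 796 without each line, against 627. Without the cell line block edgeR called no region (0, with 437 at an unadjusted p below 0.05) and no gene (0, with 164 unadjusted). The HGF region at -5590 bp then had a log2 fold change of 1.60 (adjusted p = 1.00) and that at -42301 bp -0.068. Of the 36 regions 0 were called without the block and 0 to 1 without each line, and 0 at 10 counts in every library, a filter that left 1 to test, the CCL3 start, and not the HGF region at -5590 bp. Without each line the -5590 bp value ran from 1.28 to 1.78. Uncalled log2 changes crossed 0 without single lines: -0.022 to 0.18 at the CCL3 start, -0.33 to 0.38 at the SPP1 start, -0.050 to 0.40 at SPP1 +8653 bp, -0.13 to 0.18 at HGF -42301 bp, and -2.67e-05 to 0.16 for the SFRP2 and -0.057 to 0.23 for the SPP1 sum. Start regions alone gave a median of 1.76 CPM for SFRP2 and 2.86 for SPP1. Regions in 6 or more lines numbered 26 at 2 CPM and 13 at 5 CPM, against 6, and those called once 11 over 28 libraries and 12 over lines in either state, against 21. SPP1 minus FRZB was 1.22 with the tallest region within 2500 bp, 0.090 without PE1 and -0.18 to 0.10 without each line, and HGF minus SFRP2 0.11 with the tallest. The cause was not tested. Leaving out PE1, counting calls with lenalidomide, and the whole-fit regions without MM1S, were chosen after seeing the data.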

Other observations

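The empty stretch around HGF in U266 reached well past the gene. Over chr7:77500001-83500000, bounds set after the values were seen, U266 had 375 counts in 323 regions, or 103 CPM, against 383 CPM in the next lowest line, KMS12BM, and a median of 1246 CPM over the other 21 lines. U266 was the lowest of 22 lines in each of the 12 bins of 500 kb in that stretch, and 1 region was called there, against 7 or more (median 36) in the other lines. In the bin before it U266 held 295 CPM (median of the others 424), and in the bin after it 152 CPM (median 148). No DNA input was measured, so copy number was not tested. U266 was also the lowest line in the 5 Mb around SPP1, at 0.374 of the median, and the highest around CCL3, at 1.33. KMS12BM, lowest at the DKK1 start region, was lowest around DKK1 (0.504), and KMS12PE, lowest for the SFRP2 sum, was lowest around SFRP2 (0.453). Around FRZB the lowest was LP1 (0.528), which was not the lowest line at that gene.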
